A study of Mus musculus with 12 samples.

Results

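The Hoxc cluster is a row of 9 homeobox genes on mouse chromosome 15, Hoxc4, Hoxc5, Hoxc6, Hoxc8, Hoxc9, Hoxc10, Hoxc11, Hoxc12 and Hoxc13, and their messenger RNA was followed here in the prostate of male mice descended from females given chlordecone during pregnancy. The genes were taken by their symbols. All 9 have a row among the 19091 genes of the F1 table, while the F3 table, with 26023 genes, lists 5 of them. Hoxc5, Hoxc11, Hoxc12 and Hoxc13 have no row there and were not analysed in F3.

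Hox genes encode homeodomain transcription factors that give cells their position along the body axis, and the genes of a cluster are switched on in the order in which they lie on the chromosome. Genes at the Hoxc4 end act in the neck and chest, those at the Hoxc13 end in the lumbar and tail region, and Polycomb proteins keep the cluster shut where it is not used. The prostate arises from the urogenital sinus and is known for posterior genes of the other clusters, such as Hoxa13, Hoxb13 and Hoxd13.

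Chlordecone, or kepone, is an organochlorine insecticide. F1 chlordecone males (3 libraries) were the sons of females that had received 100 µg/kg/day between E6.5 and E15.5 (embryonic days), and F3 chlordecone males (3 libraries) descended from the same exposure through further crosses. F1 control males (2 libraries) and F3 control males (3 libraries) are labelled as controls of the same generations, and the labels give neither strain, age nor vehicle. Of the 12 labelled samples 11 were analysed, F1 control 3 being the one not analysed here. Whether samples were separate animals, pools or littermates is not given, so every p-value measures only the spread between these libraries.

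Poly-A RNA was sequenced and the authors deposited raw counts per gene. Total counts were 17858215 to 28061760 in F1 chlordecone and 17228539 to 18740109 in F1 control libraries, and 86552953 to 112491139 in F3 chlordecone and 71672418 to 114762135 in F3 control libraries. Levels are given in CPM, the count divided by the TMM-scaled library total. Different genes are compared as CPM per kb of annotated exon, except where CPM or counts are named. Tissue content differed: summed seminal vesicle markers, all 8 with a row, ran from 118645 to 528819 CPM in F1 and from 10.01 to 71.1 CPM in F3. Prostate markers, 9 of 9 with a row, summed to 40545 CPM in F1 chlordecone 2, where Sbp was at 0, and to 80364 to 105560 CPM in the other libraries. The F1 controls were closer to each other (chi-square per gene 16.5) than any pair of F1 chlordecone libraries (327 to 619), and were counted as separate samples. Pairs within the F3 groups had 64.8 to 248, but a chi-square of counts rises with depth, so those values are not compared with F1.

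What the 9 proteins share is the homeodomain. The stretch of the homeobox that encodes the DNA-reading helix is shown here for 8 of the genes, because these genes are recognised as a family by it. Each is 54 bases of the GENCODE M21 (GRCm38) reference transcript, plus strand of chromosome 15, written 5′ to 3′, and capitals mark the 18 bases of the helix core.
Hoxc4: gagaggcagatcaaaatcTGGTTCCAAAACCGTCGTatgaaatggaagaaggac
Hoxc6: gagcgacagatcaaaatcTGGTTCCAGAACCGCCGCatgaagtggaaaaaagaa
Hoxc8: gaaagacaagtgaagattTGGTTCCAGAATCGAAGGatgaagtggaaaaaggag
Hoxc9: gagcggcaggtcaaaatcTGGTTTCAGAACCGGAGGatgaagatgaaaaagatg
Hoxc10: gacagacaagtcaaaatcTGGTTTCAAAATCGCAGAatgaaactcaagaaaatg
Hoxc11: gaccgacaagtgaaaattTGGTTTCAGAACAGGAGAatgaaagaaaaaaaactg
Hoxc12: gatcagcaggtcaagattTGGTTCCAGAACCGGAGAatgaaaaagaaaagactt
Hoxc13: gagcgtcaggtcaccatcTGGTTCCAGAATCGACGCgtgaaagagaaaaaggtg

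Over the whole homeobox of 180 bases, identity among the 36 pairs of genes ran from 48.3% (Hoxc5 and Hoxc13) to 77.8% (Hoxc5 and Hoxc6). The longest run of identical bases shared by any pair of the reference transcripts was 22, between Hoxc8 and Hoxc9. With genes of the other Hox clusters the longest shared run was 18 bases for Hoxc12 and 50 bases for Hoxc9. The Hoxc9 run is a CT repeat in common with Hoxb9 and lies outside the homeobox, 392 bases past its end.

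The cluster covers 115750 bases at chr15:102921103-103036852 (GRCm38), and all 9 genes lie on the plus strand. In transcription order they are Hoxc13 (chr15:102921103-102928814), Hoxc12 (chr15:102936757-102938609), Hoxc11 (chr15:102954427-102957708), Hoxc10 (chr15:102966796-102971893), Hoxc9 (chr15:102976439-102985099), Hoxc8 (chr15:102990607-102994111), Hoxc6 (chr15:102998257-103011881) and Hoxc4 (chr15:103018934-103036852). Hoxc5 (chr15:102967443-103017429) is annotated over 49987 bases that take in Hoxc10 to Hoxc6, and it shares 166 exonic bases with Hoxc10 on the same strand, so reads in that overlap could belong to either gene. Hotair (chr15:102944062-102947730), a long non-coding RNA known in human cells to bind Polycomb complexes, lies on the minus strand between Hoxc12 and Hoxc11.

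**Figure D1:**
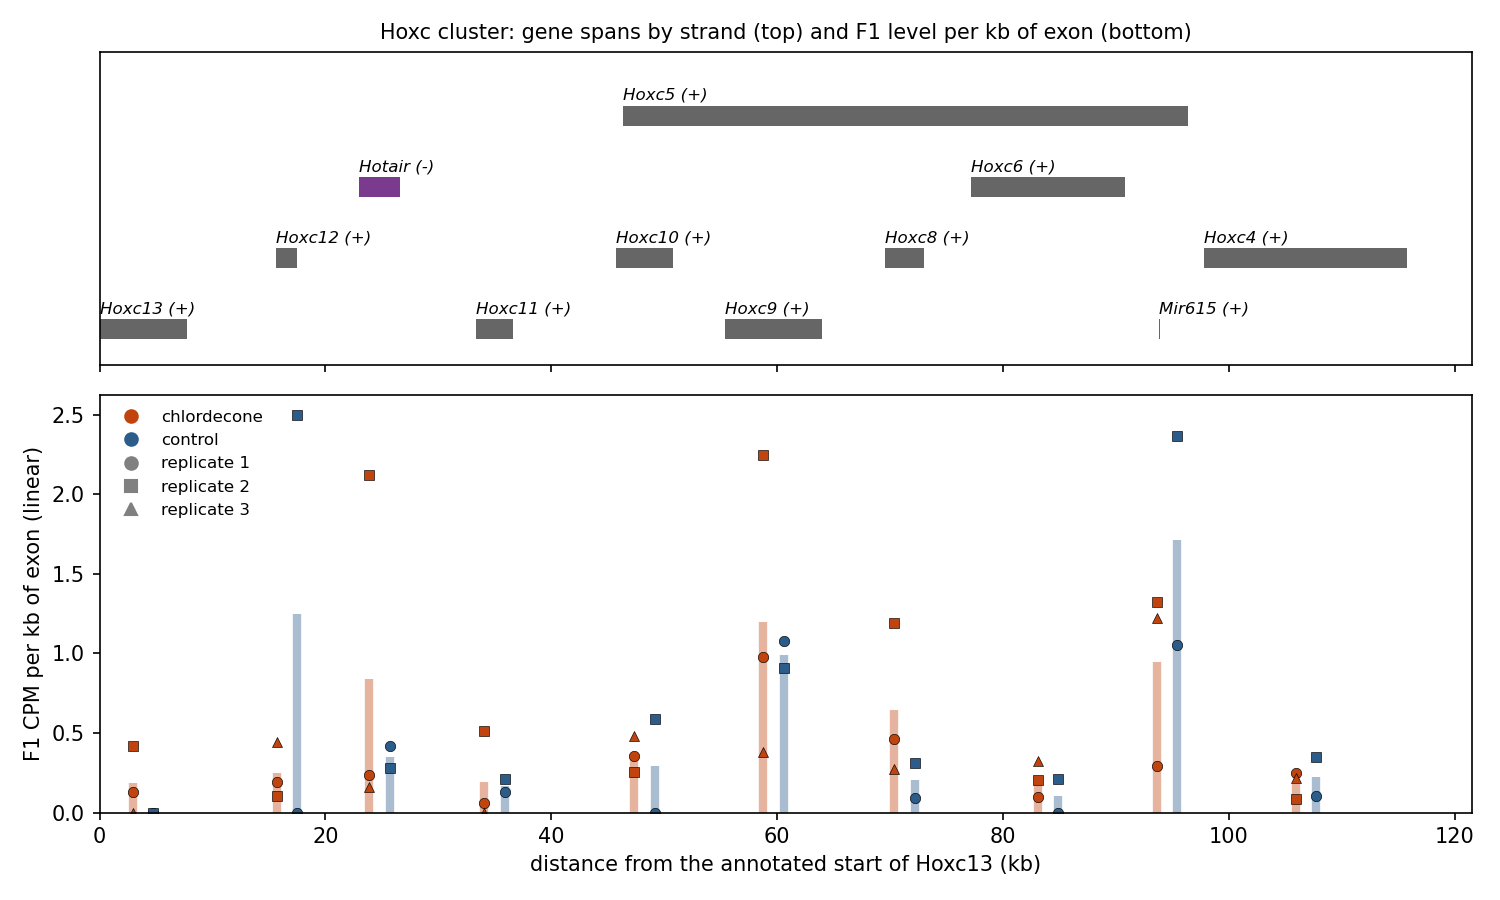
Top: annotated spans of the Hoxc genes, Hotair and Mir615, with their strand, by distance from the start of Hoxc13 in kb. Bottom: level of each member and Hotair in F1 as CPM per kb of exon, points for libraries and bars for group means from 0 (Hoxc5 is drawn near its last exon), chlordecone left of control; Hoxc5 and Hoxc9 have the highest means over all libraries, and Hoxc13 is at 0 in both control libraries.

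In F1 prostate the Hoxc messages were rare. Over all 5 libraries Hoxc5 had the highest level per length, 1.25 CPM per kb, followed by Hoxc9 (1.12), Hoxc12 (0.649), Hoxc8 (0.468), Hoxc10 (0.336), Hoxc4 (0.199), Hoxc11 (0.182), Hoxc6 (0.168) and Hoxc13 (0.110). The place of Hoxc12 rests on control 2, without which its mean was 0.186. By group, Hoxc9 came before Hoxc5 in chlordecone libraries (1.20 and 0.947 CPM per kb) and after it in control libraries (0.992 and 1.71). Library ranges overlapped between every pair of neighbours in that order. By CPM, Hoxc5 stood at percentile 39.2 of the F1 table and Hoxc13 at percentile 2.59. Olfactory receptor genes, which prostate is not known to use widely, served as a yardstick chosen after the values were seen. Of 1107 annotated receptors 107 have a row and a length in F1, where genes with fewer than 20 counts in all are not listed, so the yardstick holds detected receptors alone. Among these 107, 3 had a level per length as high as Hoxc5 or higher, 3 as high as Hoxc9, 6 as high as Hoxc12, 10 as high as Hoxc8 and 12 as high as Hoxc10. For Hoxc4 the number was 31, for Hoxc11 34, for Hoxc6 37 and for Hoxc13 56.

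Across the cluster, F1 chlordecone libraries 1, 2 and 3 held 171, 299 and 178 counts over the 9 genes, against 127 and 340 counts in control libraries 1 and 2. As summed CPM this was 6.77, 16.3 and 8.19 in chlordecone libraries and 6.65 and 15.9 in control libraries, with means of 10.4 ± 5.14 (SD, n = 3) and 11.3 ± 6.56 (n = 2). The highest library of each group was its number 2, and the groups overlapped. The controls themselves lay 1.26 apart on the log2 scale, a gap reached by 15.02% of the F1 genes tested, and the exact Poisson intervals of their counts did not meet (106 to 151 for control 1 and 305 to 378 for control 2, counting error only).

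The members did not share 1 ranking of the libraries. Control 2 was the highest of the 5 libraries for Hoxc4, Hoxc5, Hoxc10 and Hoxc12, and chlordecone 2 for Hoxc8, Hoxc9, Hoxc11 and Hoxc13. Hoxc6 was highest in chlordecone 3.

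At the anterior end, Hoxc4, which acts in the cervical and upper thoracic skeleton, had 0.634, 0.218 and 0.552 CPM in chlordecone libraries and 0.262 and 0.890 CPM in control libraries. Chlordecone 1 and 3 lay between the controls, and chlordecone 2 was the lowest of the 5. Hoxc5, its neighbour, had 0.911, 4.09 and 3.77 CPM in chlordecone libraries, against 3.25 and 7.31 CPM in control libraries. Chlordecone 1 was the lowest and control 2 the highest, and chlordecone 2 and 3 lay between the controls. The Hoxc5 means were 2.93 ± 1.75 CPM (SD, n = 3) and 5.28 ± 2.87 CPM (n = 2). Hoxc6, whose human counterpart is used as a urinary RNA marker of prostate cancer, had 0.238, 0.491 and 0.783 CPM in chlordecone libraries and 0 and 0.515 CPM in control libraries, the counts being 6, 9 and 17 against 0 and 11. These groups overlapped, control 2 lying between chlordecone 2 and 3.

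Inside the Hoxc5 span the F1 table also lists Mir615, the hairpin of a microRNA. It had 1, 7 and 3 counts in chlordecone libraries and 6 and 15 in control libraries, and chlordecone 1 and control 2 were its lowest and highest libraries, as they were for Hoxc5. Poly-A libraries do not measure the mature microRNAs, so these counts cannot be read as mature microRNA. The mature sequences, from RefSeq (GRCm38.p6), are shown to identify the locus, with the seed (bases 2 to 8) in capitals.
miR-615-5p: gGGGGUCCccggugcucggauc
miR-615-3p: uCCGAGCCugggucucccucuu

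In the middle of the cluster, Hoxc8, which patterns the thorax and its motor neurons, had 1.31, 3.38 and 0.783 CPM in chlordecone libraries, against 0.262 and 0.890 CPM in control libraries. Chlordecone 3 lay below control 2, so the groups overlapped, although the means were 1.82 ± 1.37 CPM (n = 3) and 0.576 ± 0.444 CPM (SD, n = 2). Hoxc9, a thoracic gene, had 2.38, 5.45 and 0.921 CPM in chlordecone libraries and 2.62 and 2.20 CPM in control libraries. The controls were close together and lay inside the spread of the chlordecone group. Hoxc10, a lumbar gene, had 0.673, 0.491 and 0.921 CPM in chlordecone libraries and 0 and 1.12 CPM in control libraries, which enclosed them.

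At the posterior end, Hoxc11, a lumbosacral gene, had 3, 19 and 0 counts in chlordecone libraries, against 5 and 9 in control libraries. Hoxc12 had 5, 2 and 10 counts in chlordecone libraries and 0 and 55 in control libraries, so that control 2 alone exceeded all others. Hoxc13, the hair and nail keratin regulator, had 8, 19 and 0 counts in chlordecone libraries and 0 in both control libraries, where a floor of 3 counts corresponds to 0.157 and 0.141 CPM. Since chlordecone 3 was also at 0, the Hoxc13 groups overlapped. Hotair, which starts between Hoxc12 and Hoxc11, had 0.475, 4.25 and 0.322 CPM in chlordecone libraries and 0.838 and 0.562 CPM in control libraries, chlordecone 2 being far above the rest. Its log2 fold change was 1.25 (SE 1.34, edgeR adjusted p = 0.783 with Benjamini-Hochberg adjustment).

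**Figure D2:**
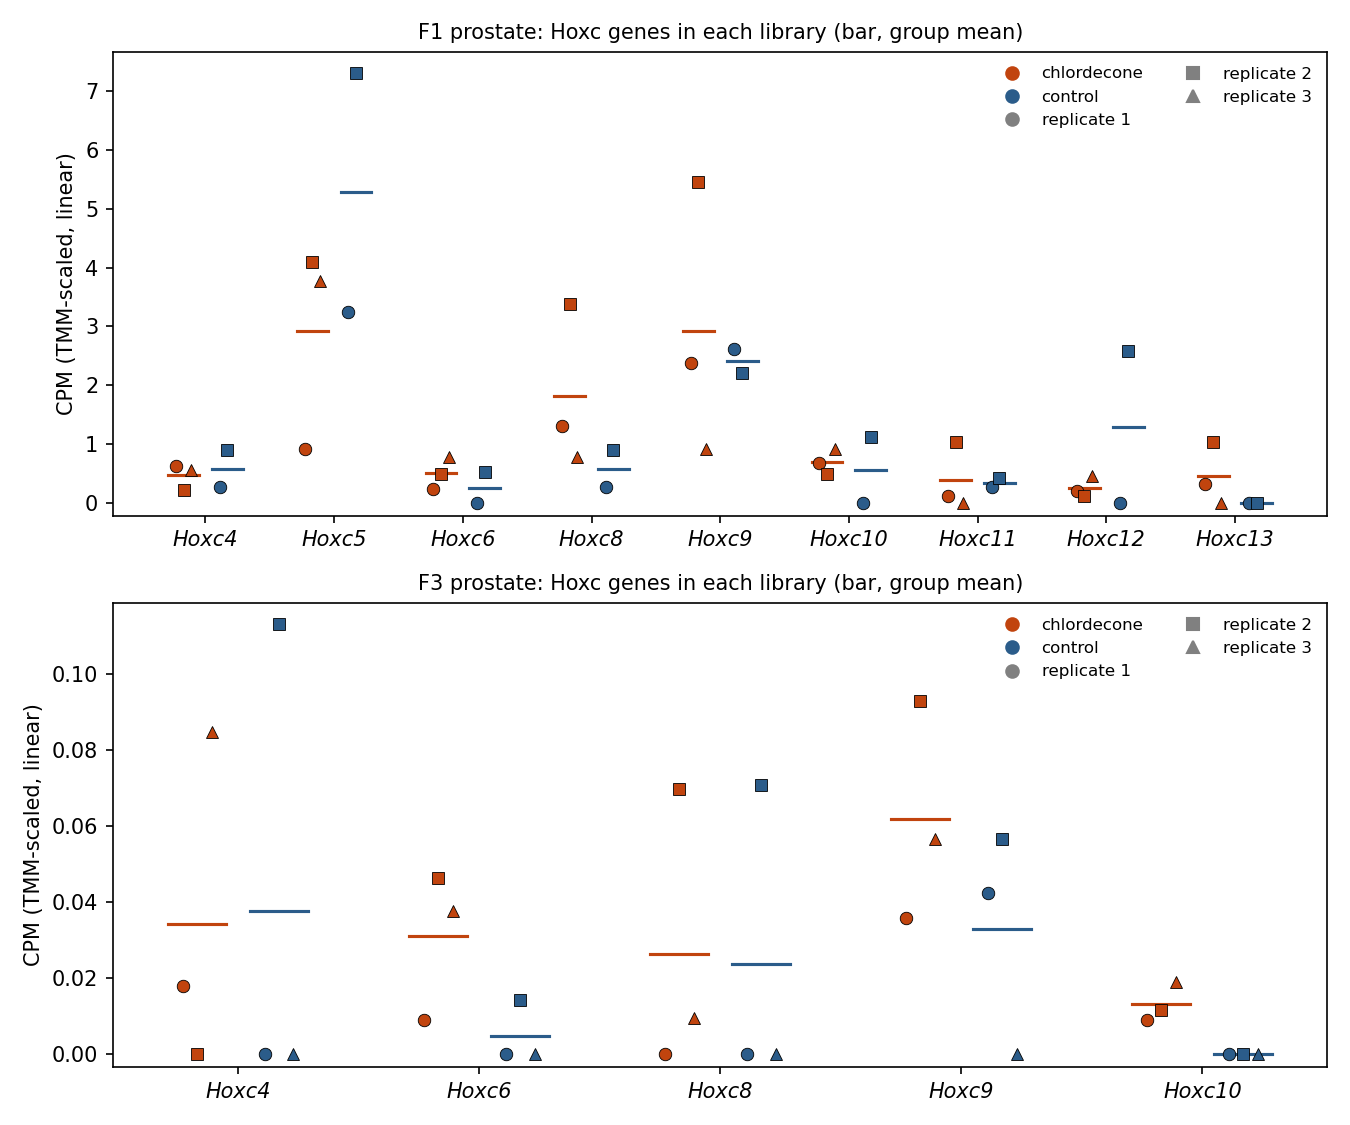
TMM-scaled CPM (linear axis) of each Hoxc gene in F1 (top) and F3 (bottom), points for libraries, bars for group means, chlordecone left of control. In F1 the groups overlap for all 9 genes, with values up to 7.31 CPM; in F3 values reach 0.113 CPM and Hoxc10 is the gene whose chlordecone libraries all lie above the controls.

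The F1 comparison asks whether exposure in the womb altered these messages in the gland. No Hoxc gene passed the test. Of the 9, 6 were left by the filter on low counts and entered the quasi-likelihood test of edgeR, and 0 passed a Benjamini-Hochberg adjusted p of 0.05, where 0.0281% of the 17804 genes did. At an unadjusted p under 0.05 the count was 0 as well, against 11.5% of all genes, and DESeq2 called 0 of them, against 4.04%. Groups did not overlap for 0 of the 9 members, against 31.3% of the genes tested.

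The log2 fold changes, chlordecone over control, were positive for 4 and negative for 2 of the tested members, with a median of 0.28 beside 0.02 over all genes tested. Hoxc8 had the highest, 1.64 (SE 1.13, 95% interval -0.96 to 4.25), with an edgeR adjusted p of 0.639 after Benjamini-Hochberg adjustment. Hoxc5 had the lowest, -0.86 (SE 0.74, 95% interval -2.56 to 0.85, edgeR adjusted p = 0.721). Between them lay Hoxc6 at 0.94 (SE 1.80), Hoxc10 at 0.30 (SE 1.67), Hoxc9 at 0.27 (SE 0.82) and Hoxc4 at -0.29 (SE 1.38), with edgeR adjusted p of 0.892 to 0.970. The intervals of Hoxc6, from -3.21 to 5.09, and Hoxc10, from -3.55 to 4.14, were the widest. Changes of many fold in either direction could therefore go undetected with these counts and this spread between libraries. Leaving out control 1 turned Hoxc6 to -0.03 and Hoxc10 to -0.68, leaving out control 2 turned Hoxc4 to 0.84, and leaving out chlordecone 2 turned Hoxc9 to -0.55 and Hoxc4 to 0.03. Hoxc5 kept its sign without any 1 library (-1.31 to -0.15), and so did Hoxc8 (0.84 to 2.77).

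Markers of other tissues moved between the same F1 libraries. Summed adipocyte markers, of which 5 of 6 have a row, were 84.1, 281 and 66.1 CPM in chlordecone libraries and 20.0 and 26.9 CPM in control libraries, and 0 of the 5 were at 0 in any of them. Fabp4 made up most of these sums, and Adipoq, the fat hormone adiponectin, had 5.19, 15.8 and 5.20 CPM in chlordecone libraries and 1.15 and 7.54 CPM in control libraries, control 2 being its second highest. Peripheral nerve markers, 6 of 6 with a row, summed to 62.1, 175 and 74.3 CPM in chlordecone libraries and 35.0 and 39.2 CPM in control libraries, S100b being at 0 in control 1. Skin and basal epithelium markers, 6 of 6 with a row, summed to 71.1, 99.3 and 76.4 CPM in chlordecone libraries and 41.1 and 54.2 CPM in control libraries. Chlordecone 2 was the highest for these 3 lists and for Hoxc8, Hoxc9, Hoxc11, Hoxc13 and Hotair. Hoxc4, Hoxc5, Hoxc10 and Hoxc12 were highest in control 2, the second lowest library by each of the 3 sums. Of all the tissue lists summed, these 3 alone peaked in chlordecone 2. Chlordecone 2 was the lowest of the 5 libraries for urothelium (14.6 CPM), fibroblast and mesenchyme (706 CPM) and prostate markers. Markers of seminal vesicle, vas deferens and epididymis, smooth muscle, striated muscle and leukocytes were highest in chlordecone 1 or 3. Vas deferens and epididymis markers, 7 of 7 with a row, spread most, with 44310, 121 and 13968 CPM in chlordecone libraries and 25.05 and 26.1 CPM in control libraries. Lcn5 was at 0 in chlordecone 2, and 2 of the 7 were at 0 in each control. Chlordecone 1 and 3, the highest for that list, were the highest of the 5 for 0 and 1 of the Hoxc genes. The part of these tissues in the Hoxc values was not tested, and in bulk tissue more cells of a type and more RNA per cell cannot be told apart.

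In F3 prostate the Hoxc cluster was close to silent in both groups. The 5 listed genes together held 8, 19 and 22 counts in chlordecone libraries 1, 2 and 3, against 4, 18 and 0 counts in control libraries 1, 2 and 3. These are 0.0718, 0.221 and 0.208 CPM in chlordecone libraries and 0.0423, 0.255 and 0 CPM in control libraries, with means of 0.167 ± 0.0824 CPM and 0.0990 ± 0.136 CPM (SD, n = 3 each). Control 2 was the highest library and control 3 the lowest, and the groups overlapped. In control 3 a floor of 3 counts is 0.0249 CPM.

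Gene by gene, Hoxc9 was the most frequent, with 4, 8 and 6 counts in chlordecone libraries and 4, 4 and 0 in control libraries. Hoxc4 had 2, 0 and 9 counts in chlordecone libraries, against 0, 8 and 0 in control libraries, so that single libraries of both groups carried nearly all of it. Hoxc8 had 0, 6 and 1 counts in chlordecone libraries and 0, 5 and 0 in control libraries, with number 2 the highest of each group. Hoxc6 had 1, 4 and 4 counts in chlordecone libraries and 0, 1 and 0 in control libraries, the lowest chlordecone and the highest control library being equal in counts. Hoxc10 had 1, 1 and 2 counts in chlordecone libraries and 0 in all 3 control libraries.

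The F3 comparison asks whether a difference was present in descendants never exposed directly. It could not be answered for single Hoxc genes with the planned test, since 0 of the 5 passed the filter on low counts. Among the genes that did, 0.0596% passed at an adjusted p of 0.05 and 10.6% at an unadjusted p under 0.05. Groups did not overlap for 1 of the 5, Hoxc10, which was higher in chlordecone libraries. Of the 16766 genes tested 8.34% lay that way round, 8.25% the other way, and 16.6% were apart in either direction. With no filter edgeR tested all 5, and 0 passed at an adjusted p of 0.05 (0.146% of the 26023 genes in that fit) or at an unadjusted p under 0.05 (8.64%). DESeq2, run with the filter, tested none of them (1.49% of all genes called). The lowest unadjusted p was that of Hoxc10, whose edgeR adjusted p was 0.644, and its 4 counts in the chlordecone group lie near the limit of counting.

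Per length, the F3 order over all 6 libraries was Hoxc9 (0.0195 CPM per kb), Hoxc4 (0.0140), Hoxc8 (0.00882), Hoxc6 (0.00743) and Hoxc10 (0.00345), again with overlapping library ranges between neighbours. By group, Hoxc9 came first in F3 chlordecone libraries (0.0254, with Hoxc4 at 0.0134) and Hoxc4 in F3 control libraries (0.0147, with Hoxc9 at 0.0136). Of the 1107 annotated olfactory receptors, 41 have a row, which takes at least 1 count, and a length in F3. Among these 41, 4 were as high as Hoxc9 or higher, 5 as high as Hoxc4, 7 as high as Hoxc8, 8 as high as Hoxc6 and 15 as high as Hoxc10.

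The 3 F3 libraries with most Hoxc counts were also the 3 with most fat markers, but the order within and below them differed. Summed adipocyte markers, 6 of 6 with a row, were 6.61, 68.8 and 78.0 CPM in F3 chlordecone libraries and 41.7, 227 and 10.1 CPM in F3 control libraries. Control 2, chlordecone 2 and chlordecone 3 were the 3 highest libraries for both quantities, and Lep, the fat hormone leptin, was at 0 in chlordecone 1. Chlordecone 1 had the lowest marker sum but more Hoxc (0.0718 CPM) than control 1 (0.0423 CPM) and control 3 (0 CPM). Chlordecone 3 exceeded chlordecone 2 in markers and lay below it in Hoxc CPM (0.208 and 0.221). The part of fat in the F3 Hoxc values was not tested. Peripheral nerve markers did not spread in the same way, at 62.9, 58.9 and 53.4 CPM in chlordecone libraries and 57.8, 49.6 and 55.8 CPM in control libraries.

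**Figure D3:**
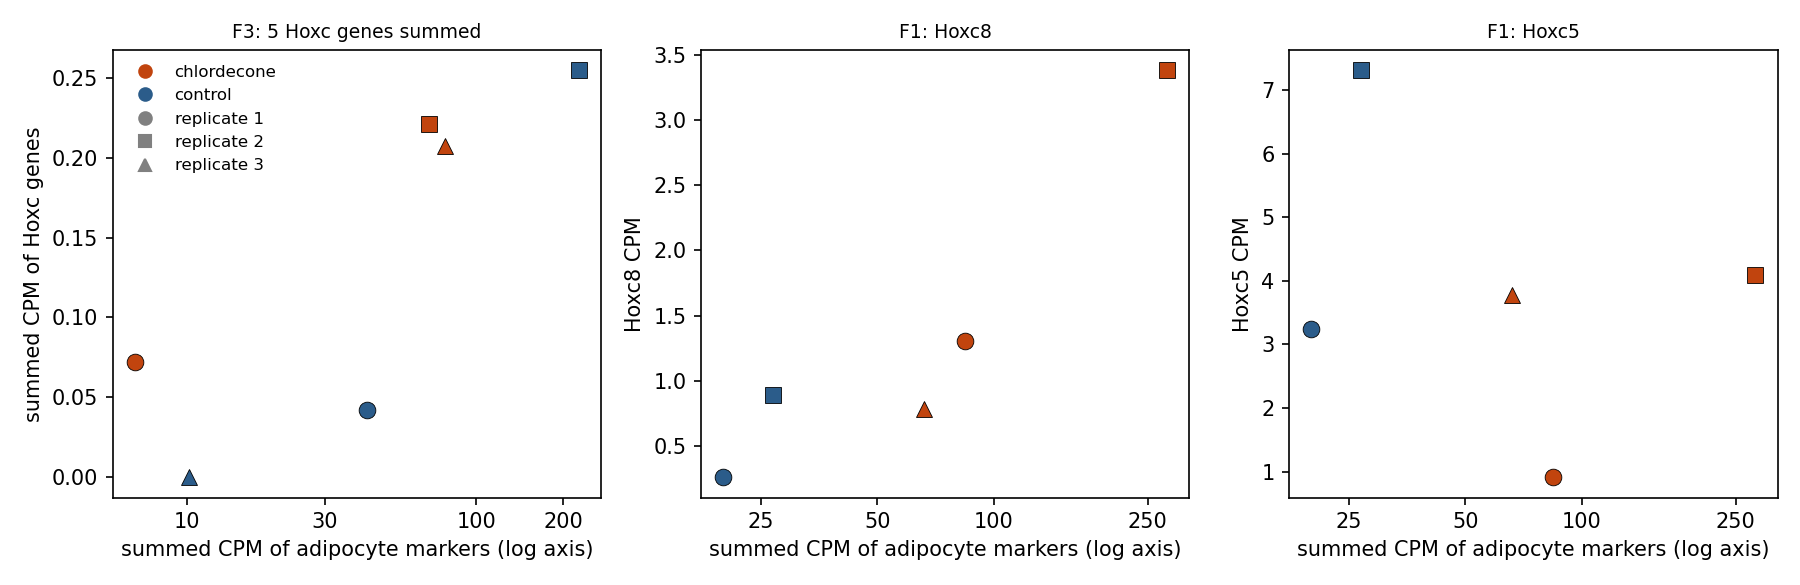
Summed CPM of adipocyte markers (log axis) against, from left, the summed CPM of the 5 Hoxc genes in the F3 libraries, Hoxc8 CPM and Hoxc5 CPM in the F1 libraries (linear axes), 1 point per library. In F3 the 3 libraries with 68.8 to 227 CPM of adipocyte markers hold 0.208 to 0.255 CPM of Hoxc; in F1 Hoxc8 is highest (3.38 CPM) where the markers are highest (281 CPM), and Hoxc5 is highest (7.31 CPM) in control 2, at 26.9 CPM.

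The 5 genes present in both tables summed to 6.41 ± 3.20 CPM in F1 chlordecone (n = 3) and 4.38 ± 1.75 CPM in F1 control libraries (SD, n = 2), against 0.167 CPM in F3 chlordecone and 0.0990 CPM in F3 control libraries. The F1 means were 38.4 times those of F3 in the chlordecone groups and 44.3 times in the control groups. Without F3 control 2, which held 18 of the 22 F3 control counts, the control ratio was 207, and without any other 1 library it was 29.5 to 56.8. These ratios cross tables that were made separately and dissections with different seminal vesicle content, so they are descriptions with no test, and the generation and the dissection cannot be told apart.

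Whether the chlordecone effect differed between the generations was tested for the 5 shared genes in 1 fit of all 11 libraries. All 5 entered that fit by their F1 counts. In F3 alone 0 of the 5 passed the filter, and no F3 library held more than 9 counts of any of them. The F3 side of each difference therefore rests on few counts, and 0 calls cannot show that the effects were alike. No Hoxc gene passed the test of that difference: edgeR called 0 of the 5 at an adjusted p of 0.05, against 0.718% of 16980 genes, 0 at an unadjusted p under 0.05, against 16.9%, and DESeq2 called 0, against 6.78%. The F3 effect minus the F1 effect was 2.71 for Hoxc10 (SE 1.86, 95% interval -1.39 to 6.81, edgeR adjusted p = 0.502 after Benjamini-Hochberg adjustment) and -1.33 for Hoxc8 (SE 2.20, 95% interval -6.09 to 3.43). Hoxc6 had 1.61 (SE 1.89), Hoxc9 0.72 (SE 1.27) and Hoxc4 0.37 (SE 2.23). Hoxc10 turned to -5.36 and Hoxc6 to -5.40 without F1 control 2, the control that carried all their F1 control counts. Hoxc8 turned to 2.16 without F3 control 2. Hoxc4 was negative without F1 control 2 (-0.71), F3 control 1 (-0.21), F3 control 3 (-0.25) or F3 chlordecone 3 (-1.27).

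**Figure D4:**
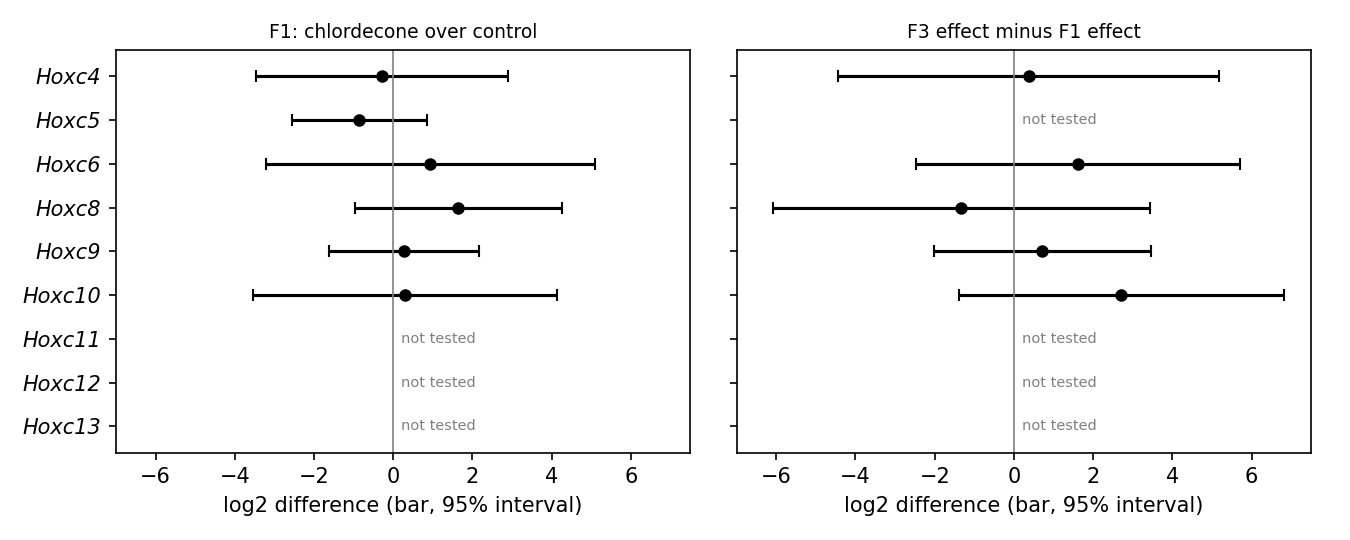
Fitted log2 difference (point) and 95% interval (bar) for each Hoxc gene, left for F1 chlordecone over control, right for the F3 effect minus the F1 effect; genes without a fit are marked as not tested. Every interval spans 0, the narrowest on the left being that of Hoxc5 (-2.56 to 0.85).

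Beside the other Hox clusters, Hoxc had the lowest summed level in every library of both generations. In CPM per kb the Hoxc genes summed to 4.17 in F1 chlordecone and 4.95 in F1 control libraries, and to 0.0679 in F3 chlordecone and 0.0385 in F3 control libraries. Hoxb, the most abundant, summed to 138 and 106 in F1 chlordecone and control libraries and to 269 and 294 in F3 chlordecone and control libraries. Hoxb13, the posterior Hox gene of prostate epithelium, had 103 ± 10.8 CPM in F1 chlordecone libraries (n = 3) and 175 ± 9.63 CPM in F1 control libraries (n = 2), against 453 ± 19.9 CPM in F3 chlordecone and 533 ± 61.3 CPM in F3 control libraries (SD, n = 3 each). Hoxc13, its relative in the Hoxc cluster, had at most 1.04 CPM in any F1 library.

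Of all Hox counts, the Hoxc genes took 1.11%, 4.18% and 1.61% in F1 chlordecone libraries and 1.78% and 4.29% in F1 control libraries. In F3 the shares were 0.0101%, 0.0304% and 0.0310% in chlordecone libraries, against 0.00573%, 0.0316% and 0% in control libraries, where 0 of 76950 counts allows a share of up to 0.00390%. Within each generation the shares of the groups overlapped. In F3 the Hoxc share lacks the 4 genes without a row.

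**Figure D5:**
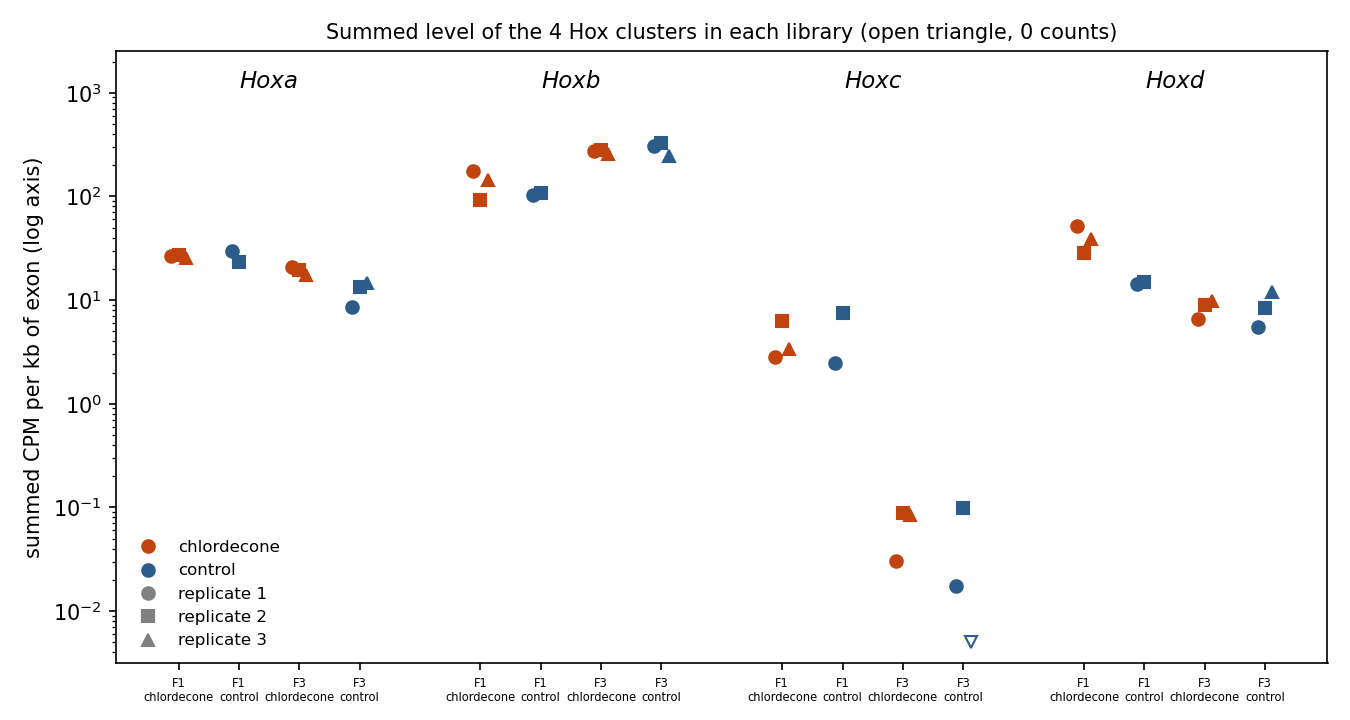
Summed CPM per kb of exon (log axis) of the Hoxa, Hoxb, Hoxc and Hoxd genes in each library, chlordecone left of control within F1 and F3. Hoxc is the lowest cluster in every library, with F1 group means of 4.17 and 4.95 and F3 group means of 0.0679 and 0.0385; the open triangle is F3 control 3, with 0 Hoxc counts.

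Genes that work with or upstream of the Hoxc cluster gave no edgeR calls. In F1, edgeR at an adjusted p of 0.05 called 0 of 9 tested Pbx, Meis and Pknox cofactors, which bind DNA together with Hox proteins (median log2 fold change 0.02), 0 of 22 Polycomb and trithorax regulators (0.21) and 0 of 16 Cdx and retinoic acid genes (0.26). In F3 the counts were 0 of 8 (0.09), 0 of 22 (0.15) and 0 of 12 (0.11). Over all genes tested the shares were 0.0281% in F1 and 0.0596% in F3. At an unadjusted p under 0.05, edgeR had 1 cofactor, 3 regulators and 3 Cdx or retinoic acid genes in F1, and 1, 3 and 2 in F3. The shares over all genes tested were 11.5% in F1 and 10.6% in F3. DESeq2 called Kmt2d, a histone methyltransferase, and Crabp2, a retinoic acid binding protein, in F1 and Stra6, a retinol transporter, in F3. It called 4.04% of all genes in F1 and 1.49% in F3. The Polycomb gene Bmi1, at 102 ± 2.04 CPM in F1 chlordecone libraries (n = 3) and 90.6 ± 0.252 CPM in F1 control libraries (SD, n = 2), was first of its list by CPM in F1, and Phc2, likewise a Polycomb gene, in F3, at 61.0 ± 0.895 CPM in chlordecone libraries and 65.4 ± 6.28 CPM in control libraries (SD, n = 3 each). Hoxa, Hoxb and Hoxd genes also gave 0 calls of 10, 10 and 8 tested in F1 and 0 of 8, 9 and 7 tested in F3. At an unadjusted p under 0.05 there were 1 Hoxa, 6 Hoxb and 6 Hoxd genes in F1 (11.5% of all genes). In F3 there were 5 Hoxa, 0 Hoxb and 0 Hoxd genes (10.6% of all genes). DESeq2 called 0, 4 and 3 in F1 (4.04% of all genes) and 4, 0 and 0 in F3 (1.49%).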

How the data were processed

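Raw read counts per Ensembl gene were deposited by the authors in 1 table for F1 and 1 for F3. The submitters' processing notes name HTSeq 0.6.1, DESeq2 1.6.3, Bowtie2 2.1.0, TopHat2 2.0.14, bcl2fastq 2.17.1.14 and, as build, mm10. Neither strand setting nor annotation release is stated in those notes. The F1 table keeps genes with a total of at least 20 counts and no mitochondrial gene, and the F3 table genes with a total of at least 1 and 27 mitochondrial genes, so levels across the tables are descriptions only. Of all rows, 2.11% in F1 and 78.9% in F3 share coordinates with GENCODE M21 (GRCm38), and the annotation behind the F1 counts is not known. Positions and exon lengths are those of M21, so F1 levels per kb may divide counts by lengths of other gene models. The letter C of a column was taken for control and K for kepone, 0 columns belonged to other samples, and the deposited fold changes and p-values were not used.

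CPM was computed from the counts with TMM factors, and CPM per kb with the merged exon length. Each generation was fitted with edgeR 4.0.16 in R 4.3.3 (filterByExpr, minimum count 10, minimum total 15, quasi-likelihood test, two-sided, no covariate, Benjamini-Hochberg over all genes tested, threshold 0.05), and the difference between generations in 1 fit of 11 libraries over genes in both tables. The fitting steps were tested on simulated data. Fold changes of F3 members were planned, but the filter left none to test, so they are given by counts. Alternatives were scaling by size factors of DESeq2 1.42.0, its Wald test, omitting the filter or asking for 1 CPM on average, fitting both generations together, a replicate block, leaving out each library and, for summed levels, total counts. Leaving out each library from the Hoxc12 level and from the ratios between generations was added after the data were seen.

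Members and lists were chosen with earlier results of these data known. The rule for named genes took all members, Hotair and the flanking genes, the 3 most abundant or any called genes of each context list, and the 5 genes most like the summed Hoxc level. Mir615 and the olfactory receptors fall outside it and were chosen after their values were seen. Intervals and floors cover counting error only.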

Additional observations from a re-analysis of the deposited data

Results flagged for a closer look

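Calcoco1, a transcriptional coactivator gene that flanks the Hoxc cluster, gave a chlordecone effect that differed between the generations. The F3 effect minus the F1 effect was -1.80 on the log2 scale (SE 0.32, edgeR adjusted p = 0.0261 with Benjamini-Hochberg adjustment). It had 19.9, 11.1 and 14.1 CPM in F1 chlordecone libraries and 4.40 and 3.84 CPM in F1 control libraries, so the groups were apart (31.3% of genes), with a log2 fold change of 1.87 (SE 0.39) that missed the threshold within F1 (edgeR adjusted p = 0.174). It passed within F1 by DESeq2 (adjusted p = 0.00220), with the replicate block (edgeR adjusted p = 0.0414) and without chlordecone 2 (edgeR adjusted p = 0.00850). Summed markers of vas deferens and epididymis (44310, 121 and 13968 CPM in F1 chlordecone libraries and 25.05 and 26.1 CPM in F1 control libraries) and of smooth muscle (11748, 4636 and 7398 CPM in F1 chlordecone libraries and 4036 and 3964 CPM in F1 control libraries) put the chlordecone libraries in the same order and above the controls, and their part in the result was not tested. Both lists were named for that order. In F3 Calcoco1 averaged 50.9 ± 6.16 CPM in chlordecone and 51.2 ± 4.55 CPM in control libraries (SD, n = 3 each). In the same F3 libraries the vas deferens and epididymis markers, 6 of 7 with a row, summed to 0.199 to 0.593 CPM. The smooth muscle markers summed to 1255 to 4215 CPM there. The difference between generations no longer passed the threshold with the replicate block (edgeR adjusted p = 0.0883), nor without F1 control 1, F1 control 2, F3 control 3 or any 1 of the F3 chlordecone libraries (edgeR adjusted p of 0.0606 to 0.110), and its sign was kept throughout (-1.93 to -1.54).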

How the results depend on the processing

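The count of Hoxc genes past the threshold was 0 in F1, in F3 and for the difference between generations under every alternative that gave a value, and the summed Hoxc CPM of each group moved by less than its SD under other scalings (9.94 to 10.4 in F1 chlordecone, 11.3 to 12.8 in F1 control, 0.167 to 0.168 in F3 chlordecone and 0.0971 to 0.0985 in F3 control libraries). In F3 the members could be fitted with no filter or in 1 fit of all libraries. Leaving out 1 library turned log2 values, with ranges in F1 of -0.91 to 0.84 for Hoxc4, -0.026 to 6.43 for Hoxc6, -0.55 to 0.70 for Hoxc9 and -0.68 to 6.89 for Hoxc10. For the difference between generations the ranges were -1.27 to 4.57 for Hoxc4, -5.40 to 3.15 for Hoxc6, -3.38 to 2.16 for Hoxc8 and -5.36 to 3.83 for Hoxc10. The highest F1 values of Hoxc6 and Hoxc10 came without control 2, when the control left, control 1, had 0 counts of both genes. Their lowest values for the difference also came without F1 control 2, so the sizes of all these values rest on a ratio to 0 counts. Why the other values moved was not tested. Calcoco1 in F3, at -0.01, was at 0.0012 with no filter, at 0.043 in 1 fit of all libraries and at -0.079 to 0.086 without 1 library. The F1 median over the members tested was -0.13 without control 1, 1.80 without control 2 and 1.01 with the replicate block, against 0.28.

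Same-numbered chlordecone and control libraries deviated together with r of 0.131, 0.00179 and 0.00191 in F3 and 0.0483 and 0.0583 in F1, so the numbers were not taken as pairs. With the replicate block 0 Hoxc genes passed in any comparison, while genes past the threshold over the whole table numbered 322 in F1, 8 in F3 and 49 for the difference, against 5, 10 and 122. The block also put the Calcoco1 difference above the threshold (edgeR adjusted p = 0.0883) and its F1 fold change below it (0.0414), as did DESeq2 (0.00220) and 1 fit of all libraries (0.00365) for F1. Over the whole F1 table DESeq2 called 719 genes and no filter gave 21. The F1 count was 0 without control 1, control 2 or chlordecone 3, 7 without chlordecone 1 and 2604 without chlordecone 2.

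Low counts and few libraries limit all of this: F1 libraries held 127 to 340 Hoxc counts and F3 libraries 0 to 22, and only 2 F1 controls were compared.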

Other observations

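Of 11161 genes with at least 1 CPM in both generations, the 5 that differed least from the summed Hoxc level over the 11 libraries were Lgi3, Lrrc17, Dnah11, Dgat2 and Cd36. The sum takes 9 Hoxc genes in F1 and 5 in F3. In F3 control 3, with 0 Hoxc counts, its centred value of -2.43 rests on a small count added before taking logs. The likeness was loose, Lrrc17 being at 0.57 in F1 control 1, where the Hoxc sum was at -0.57. The measure was the root mean square difference of log2 CPM, centred within each generation, and it was 0.670, 0.695, 0.704, 0.719 and 0.744 for these genes, against a median of 1.135. These genes were chosen for that likeness, and nothing further was tested on them.

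Of the genes that flank the cluster, Calcoco1, Cbx5 and Smug1 averaged 0.719, 1.28 and 0.964 CPM per kb in F1 control libraries. Hoxc5 averaged 1.71 CPM per kb there and Atp5g2 8.54 CPM per kb. In control 1 by itself Cbx5 (1.10) and Smug1 (1.34) lay above Hoxc5 (1.05). In F1 chlordecone libraries Calcoco1, Cbx5 and Smug1 averaged 2.62, 1.93 and 1.37 CPM per kb, above Hoxc5 at 0.947. Atp5g2, a subunit of mitochondrial ATP synthase, had 41.4, 8.12 and 32.1 CPM in F1 chlordecone libraries and 14.4 and 14.2 CPM in F1 control libraries. Cbx5, a heterochromatin protein, had 17.4 ± 3.34 CPM in F1 chlordecone (n = 3) and 11.5 ± 2.24 CPM in F1 control libraries (SD, n = 2), a log2 fold change of 0.60 (SE 0.31, edgeR adjusted p = 0.521 with Benjamini-Hochberg adjustment). In F3 edgeR called 0 of the 4 flanking genes tested, against 0.0596% of all genes tested.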
